A study of Mus musculus with 20 samples.

Results

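The 9 genes described here code for the proteins by which the liver takes up glucose, runs and gates glycolysis, and stores and releases glycogen. They are Slc2a2 (glucose uptake), Gckr (a regulator of the entry of glucose into glycolysis), Pfkl, Pfkfb1 and Pklr (glycolysis), Gys2 and Pygl (glycogen synthesis and breakdown), and Ppp1r3b and Ppp1r3c (glycogen-targeting subunits of protein phosphatase 1). They were chosen by symbol and make up 9 of the 13319 genes listed in the counts. All 9 passed the filter on low counts, which kept 12907 genes. Ppp1r3c passed through the groups in which it was higher: it reached the filter's level in 4 of 4 glucagon, 3 of 4 T3, 1 of 4 combination, 1 of 4 hybrid and 4 of 4 control livers.

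The study gave male mice on a western diet a daily treatment for 16 days and counted mRNA in the liver of each mouse. The 5 groups of 4 mice received glucagon, T3 (the active thyroid hormone), glucagon and T3 as a combination, a single molecule that joins glucagon to T3 (the hybrid), or the control treatment. The labels code the hybrid livers only as Cp, so they were taken as the hybrid because no other treatment was left. The sources used here give no dose, strain or age.

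Glucagon is the fasting hormone that acts on hepatocytes through cAMP and protein kinase A, and it switches the liver from glycolysis and glycogen storage to glucose release. Much of that switch is made on the proteins: phosphorylation turns off the L-type pyruvate kinase and glycogen synthase, turns on glycogen phosphorylase, and turns the bifunctional enzyme made from Pfkfb1 into a phosphatase. T3 acts through nuclear receptors in the hepatocyte. mRNA levels, which are all that was measured here, do not show the state of these enzymes.

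The mRNA of none of the 9 genes was called higher under any of the 4 treatments than in control livers, a direction in which 7.31% to 11.2% of all genes tested were called. At that share about 1 gene in 9 or fewer would be called, so the absence of such a call is near the background. Ppp1r3c fell in all 4 treated groups, and Slc2a2 and Gys2 fell in the 3 groups that received T3 in any form. Pklr and Pygl fell with T3 and with the hybrid. Lower calls against control made up 10.6% to 13.2% of all genes tested in the 4 treatments. All these Pklr and Pygl calls were lost under an alternative fit given below. So were the Gys2 calls with T3 and the combination and the Ppp1r3c call with glucagon. Set against glucagon, livers given the hybrid had lower mRNA of 7 of the 9 genes, a direction in which 11.7% of all genes tested were called. Pfkl, Pfkfb1, Gckr and Ppp1r3b were not called in any comparison with control livers. Calls are by the quasi-likelihood test of edgeR, at a Benjamini-Hochberg p below 0.05 after adjustment over all 12907 genes. Levels are CPM, counts scaled to the size of each library with TMM factors, given in the order of replicates 1 to 4, and changes are log2 fold changes ± SE (n = 4 mice a group). CPM does not allow for gene length, so levels of different genes are not compared.

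Total counts ran from 11988039 to 19931718 in glucagon livers, from 6091917 to 7996156 in T3 livers, from 9858877 to 14897657 in combination livers, from 8791923 to 17445035 in hybrid livers and from 11562213 to 23195658 in control livers. The T3 libraries were all sequenced in lane 5 and every other library in lanes 1 to 4, so the lane and T3 alone cannot be told apart. The control livers varied most, and the biological coefficient of variation was 25.8% with glucagon, 19.2% with T3, 18.9% with the combination, 22.6% with the hybrid and 43.2% in the control group. Control replicate 2 stood apart: its 12 interferon response genes summed to 1845 CPM, the highest of the 20 livers, and it was the lowest control for 7 of the 9 genes. Glucagon replicate 3 held 4209 CPM of 20 skeletal muscle genes and control replicate 2 held 1105 CPM, above hybrid replicate 4 at 700.1 CPM and combination replicate 4 at 418 CPM. Calls of the 9 genes that changed when one of these livers was left out are given with and without it.

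The tissue label was checked against hepatocyte markers, of which 7 of 8 were listed and none was at 0. They summed to 165499 to 228528 CPM in glucagon, 91258 to 135361 CPM in T3, 102243 to 155062 CPM in combination, 84539 to 120703 CPM in hybrid and 131389 to 266246 CPM in control livers. The hepatocyte sums of hybrid livers lay below those of all control livers, and 3 markers were called lower with the hybrid: Alb (-0.93 ± 0.26), Ttr (-0.98 ± 0.19) and Apob (-1.00 ± 0.30). With T3 the same 3 markers were called lower and Ahsg was called higher (0.60 ± 0.19), and with the combination Ttr alone was called lower (-0.89 ± 0.19). The shares of all genes tested called lower were 13.2% with the hybrid, 10.6% with T3 and 10.9% with the combination, and 7.31% were called higher with T3. Macrophage markers, 12 of 13 listed, summed to 290.5 to 362 CPM in glucagon, 909.7 to 1145 CPM in T3, 693 to 817 CPM in combination, 726 to 987 CPM in hybrid and 398 to 813 CPM in control livers. Of these 12, 8 were called lower with glucagon, and 6, 4 and 5 were called higher with T3, the combination and the hybrid. Beside them, 12.0% of all genes tested were called lower with glucagon, and 7.31%, 9.23% and 11.2% higher with the other 3 treatments. Against glucagon livers, 12 were called higher with the hybrid and 10 with the combination, or 11 and 9 without glucagon replicate 3. Of all genes tested, 13.6% and 12.4% were called higher in those comparisons. Of the hepatocyte markers, 2 were called lower with the hybrid than with glucagon, a direction in which 11.7% of all genes tested were called. In combination against glucagon livers 1 was called higher and 1 lower, beside 12.4% and 10.2% of all genes tested. Without glucagon replicate 3 the hepatocyte counts were 0 and 1. The 12 interferon response genes summed to 91.6 to 187 CPM in glucagon, 348 to 934 CPM in T3, 223 to 639.8 CPM in combination, 377 to 702 CPM in hybrid and 116 to 1845 CPM in control livers. All 12 were called lower with glucagon, but that count rests on control replicate 2. Without that liver, 3 were called lower with glucagon, and 11, 6 and 11 were called higher with T3, the combination and the hybrid. Without glucagon replicate 3 as well, the glucagon count was 1. Against glucagon livers, 11 of the 12 were called higher with the hybrid and 4 with the combination. These counts were 3 and 2 without glucagon replicate 3, and 12 and 12 without control replicate 2 as well. No share of all genes is given beside marker counts with livers left out. In whole-liver RNA, fewer hepatocytes and less mRNA in each hepatocyte cannot be told apart, and the part of these markers in the changes below was not tested.

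A pair of sequences is shown because they hold, near the transcription start, the E-box type of motif through which the glucose-sensing factor ChREBP (Mlxipl) and the USF proteins bind DNA. The first is the region from 250 bases before to 50 after the start of the liver form of Pklr, chr3:89136373-89136672 on the + strand, and the second is the same window of Ppp1r3c, chr19:36736555-36736854 on the - strand. Both are RefSeq sequences of GRCm38.p6, written 5′ to 3′, and capitals mark the motif.
Pklr: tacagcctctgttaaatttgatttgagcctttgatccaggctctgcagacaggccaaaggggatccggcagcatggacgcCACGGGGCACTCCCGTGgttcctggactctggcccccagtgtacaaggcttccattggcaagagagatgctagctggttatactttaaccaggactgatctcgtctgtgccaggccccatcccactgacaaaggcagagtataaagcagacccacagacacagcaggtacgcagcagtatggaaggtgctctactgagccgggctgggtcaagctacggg
Ppp1r3c: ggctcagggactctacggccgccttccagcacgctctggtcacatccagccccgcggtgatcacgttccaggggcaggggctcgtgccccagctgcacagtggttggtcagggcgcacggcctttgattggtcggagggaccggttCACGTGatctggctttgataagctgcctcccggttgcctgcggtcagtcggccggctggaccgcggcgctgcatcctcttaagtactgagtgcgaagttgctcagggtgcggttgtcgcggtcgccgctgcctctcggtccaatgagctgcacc
The Pklr capitals match CACGNG and CNCGTG with 5 bases of any kind between them, the carbohydrate response element form, from 170 to 154 bases before the start. This pattern occurs in 15 of 32851 promoter windows of the same length, 0.0457% of them, and in no other window of these genes. The Ppp1r3c capitals are a palindromic E-box, CACGTG, from 104 to 99 bases before the start; 2349 windows hold it, 7.15% of the total. In all, 7 of the 9 genes had 11 windows between them, and Gys2 and Ppp1r3b had none in the table. Searches of those windows found TGACG, part of a cAMP response element, in Pygl, on the reverse strand from 44 to 40 bases before the start, and in 20.8% of all windows. TGACGTCA, the full palindromic element, was in 1.79% of all windows and in none of the 11. A direct repeat of AGGTCA with 4 bases of any kind between the copies, a form bound by thyroid hormone receptors, was in 0.0152% of all windows and in none of the 11. Each motif was searched on both strands, and TGACG is contained in TGACGTCA. A match is a stretch of letters only; binding was not measured.

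**Figure D1:**
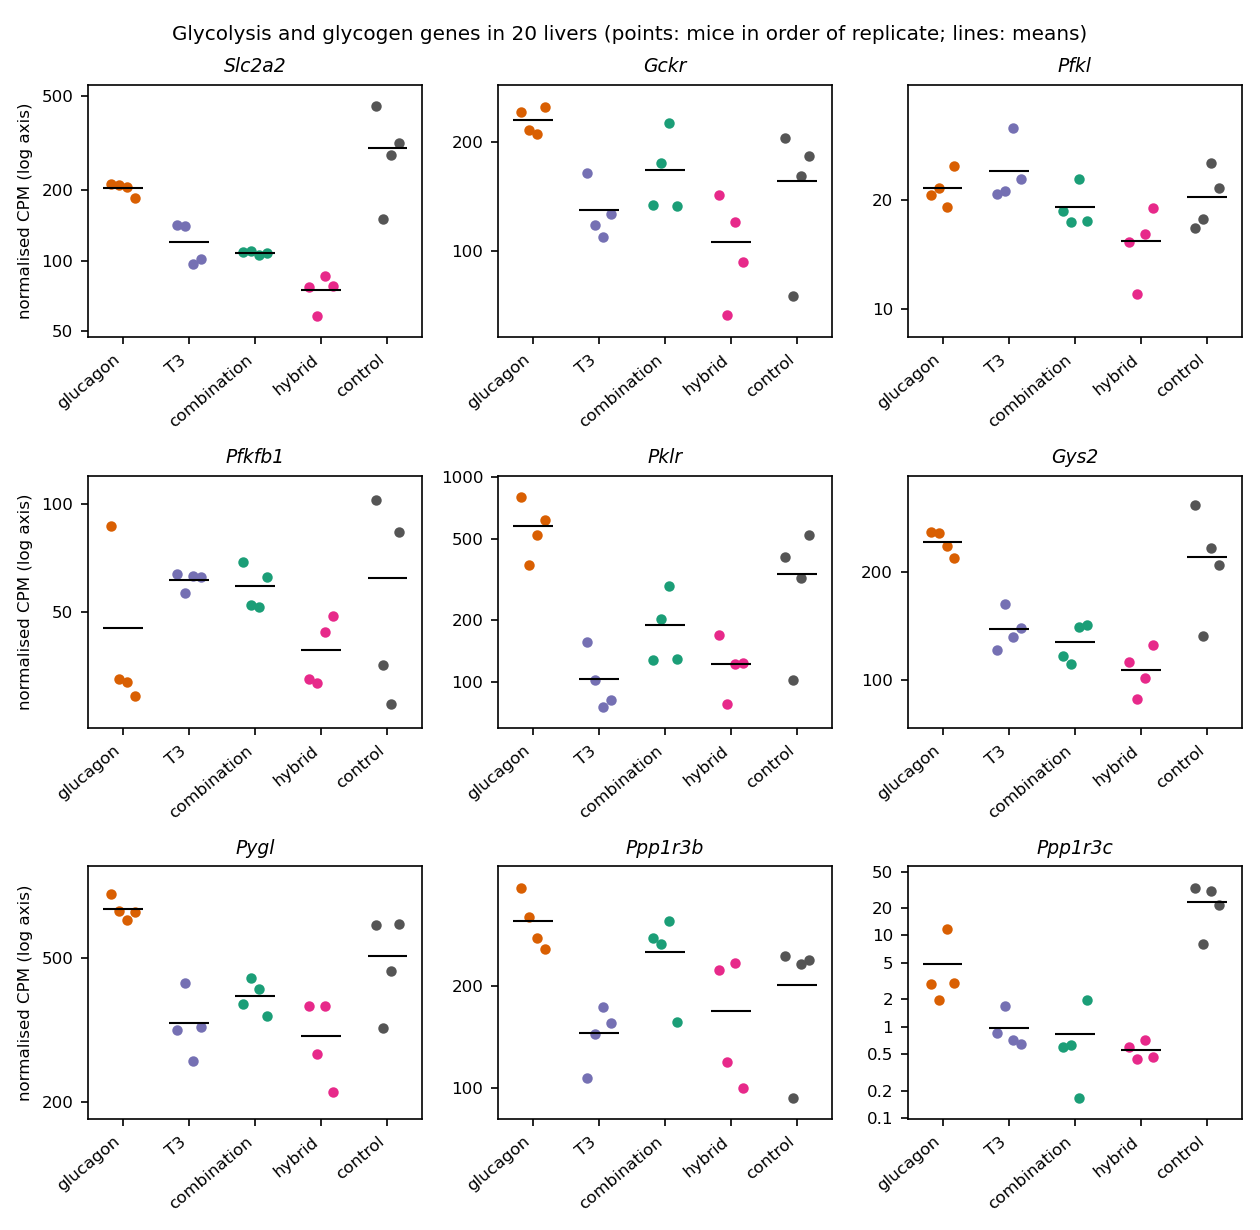
Levels of the 9 genes in each liver, in CPM on a log axis, by group (4 livers each; short bars are group means). Ppp1r3c lies at or below 1.95 CPM in every T3, combination and hybrid liver, and between 7.97 and 33.4 CPM in control livers.

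Slc2a2 codes for GLUT2, the high-capacity transporter through which hepatocytes exchange glucose with the blood (chromosome 3, 28697903 to 28731359, + strand, GRCm38). Its level was 210.5, 209, 205 and 185 CPM in glucagon, 142, 140.0, 96.7 and 101 CPM in T3, 108, 109, 105 and 108 CPM in combination, 77.6, 58, 86.2 and 77.9 CPM in hybrid and 454, 151, 280.0 and 316 CPM in control livers. Every T3, combination and hybrid liver lay below every control liver, and every hybrid liver lay below every combination liver. Slc2a2 fell 4.01-fold with the hybrid (-2.00 ± 0.23, adjusted p = 5.2e-06), 2.79-fold with the combination (-1.48 ± 0.23, adjusted p = 0.000143) and 2.5-fold with T3 (-1.32 ± 0.23, adjusted p = 0.000669). With glucagon alone the log2 change was -0.57 ± 0.23 and was not called (adjusted p = 0.0797). Without control replicate 2, the lowest control at 151 CPM, the glucagon change was -0.78 and called (adjusted p = 0.00438). Ordered by mean, the groups ran control, glucagon, T3, combination and hybrid, and of the neighbours in this order only glucagon and T3, and combination and hybrid, did not overlap.

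Gckr codes for an inhibitory protein of the hepatocyte nucleus that gates the entry of glucose into glycolysis (chromosome 5, 31297443 to 31327314, + strand). Gckr stood at 242, 216, 211 and 250.5 CPM in glucagon, 164, 118, 109.6 and 127 CPM in T3, 134, 176, 226 and 133 CPM in combination, 142, 66.5, 120.3 and 93.4 CPM in hybrid and 205, 75, 161 and 183 CPM in control livers. Glucagon livers lay above all control, T3 and hybrid livers, and the other 4 groups overlapped one another. The hybrid livers had 2.18-fold less Gckr than the glucagon livers (-1.12 ± 0.27, adjusted p = 0.0041). No other contrast tested was called for Gckr, and T3 was not tested directly against glucagon. Against control the change was 0.56 ± 0.26 with glucagon (adjusted p = 0.14) and -0.56 ± 0.26 with the hybrid (adjusted p = 0.13). Without control replicate 2, the hybrid change was -0.78 and called (adjusted p = 0.0135).

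Pfkl codes for the liver subunit of phosphofructokinase, which catalyses the committed step of glycolysis (chromosome 10, 77986947 to 78010083, - strand). Its levels were 20.7, 21.6, 19.2 and 24.8 CPM in glucagon, 20.7, 21.2, 31.6 and 22.8 CPM in T3, 18.7, 17.4, 22.9 and 17.5 CPM in combination, 15.3, 11, 16.1 and 19 CPM in hybrid and 16.7, 17.7, 25.3 and 21.6 CPM in control livers. The hybrid livers were low, all below every glucagon and every T3 liver, and no treated group was separate from the control livers. Against T3 the hybrid was 1.57-fold lower (-0.65 ± 0.18, adjusted p = 0.0371), a call that was lost when any one of the 4 T3 livers or of hybrid replicates 1, 2 and 3 was left out (adjusted p = 0.0508 to 0.132). Against glucagon the hybrid differed by -0.49 ± 0.18 (adjusted p = 0.0529), which was called in the fit with a replicate block (adjusted p = 0.0261; 0.0376 with lane as the block in the 16 libraries of lanes 1 to 4) and without hybrid replicate 4 (0.0288). It was also called by DESeq2 (adjusted p = 0.0311), with RLE size factors (0.0423), with only the 2 groups in the fit (0.0447) and without control replicate 2 and glucagon replicate 3 (0.0472). Against control the log2 changes ran from -0.40 ± 0.18 with the hybrid to 0.25 ± 0.18 with T3, none called.

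Pfkfb1 codes for the liver form of the bifunctional enzyme that makes and removes fructose 2,6-bisphosphate, the activator of phosphofructokinase (chromosome X, 150588229 to 150643878, + strand). Exons of Apex2 overlap it on the opposite strand, and no source used here gives the strand setting of the counts, so its reads cannot be told apart from those of Apex2 where the exons overlap. Pfkfb1 reached 86.5, 32.8, 32 and 29.4 CPM in glucagon, 64, 56.5, 63.1 and 62.5 CPM in T3, 69.1, 52.6, 51.8 and 62.5 CPM in combination, 32.6, 31.9, 44.2 and 48.8 CPM in hybrid and 102, 35.8, 27.9 and 83.5 CPM in control livers. Controls spread over more than the whole range of the other groups, and 3 of the 4 glucagon livers were close together with the other far above them. Hybrid livers lay below all T3 and all combination livers, but neither difference was called (-0.65 ± 0.36, adjusted p = 0.297, against T3 and -0.59 ± 0.35, adjusted p = 0.79, against the combination). No contrast was called for Pfkfb1, although that against T3 was with only the 2 groups in the fit (adjusted p = 0.0172). Leaving out 1 liver brought a call in 2 of them: glucagon against control without glucagon replicate 1 (-1.00, adjusted p = 0.0383) and hybrid against control without control replicate 3 (-0.92, adjusted p = 0.0492).

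Pklr codes for the L-type pyruvate kinase, the last enzyme of hepatic glycolysis, and a textbook target gene of ChREBP (chromosome 3, 89136142 to 89146784, + strand). Exons of Hcn3 overlap it on the opposite strand, with the same limit as for Pfkfb1. Pklr was measured at 802, 373, 520.5 and 616 CPM in glucagon, 156, 102, 75.1 and 81.3 CPM in T3, 128, 203, 293 and 129 CPM in combination, 169, 77.7, 122 and 123 CPM in hybrid and 405, 102, 321 and 523 CPM in control livers. Glucagon livers lay above every T3, combination and hybrid liver, and control replicate 2 was far below the other controls and within the range of the T3 and hybrid livers. Pklr fell 3.26-fold with T3 (-1.70 ± 0.40, adjusted p = 0.00675) and 2.75-fold with the hybrid (-1.46 ± 0.39, adjusted p = 0.0105); with the combination the change was -0.84 ± 0.39 and was not called (adjusted p = 0.132). Set against glucagon, the fall was 4.7-fold with the hybrid (-2.23 ± 0.40, adjusted p = 0.000416) and 3.07-fold with the combination (-1.62 ± 0.40, adjusted p = 0.00534). Glucagon itself differed from control by 0.78 ± 0.39 (adjusted p = 0.163). Without control replicate 2 the combination change was -1.14 and called (adjusted p = 0.0165), and with only the 2 groups compared in the fit the T3 and hybrid calls were lost (adjusted p = 0.0524 and 0.0577).

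Gys2 codes for the liver glycogen synthase (chromosome 6, 142422613 to 142473109, - strand). Livers held 258, 255, 236 and 218 CPM of Gys2 with glucagon, 122, 163, 131 and 139 CPM with T3, 117, 111, 141 and 142 CPM with the combination, 113, 89, 102 and 125 CPM with the hybrid and 305, 133, 232 and 209 CPM in the control group. The hybrid livers were all below the control livers, while the T3 and combination livers overlapped the controls through control replicate 2. Glucagon livers were higher than every liver of the 3 groups that received T3. Gys2 fell 2.05-fold with the hybrid (-1.04 ± 0.19, adjusted p = 0.00055), 1.72-fold with the combination (-0.78 ± 0.19, adjusted p = 0.00657) and 1.58-fold with T3 (-0.66 ± 0.19, adjusted p = 0.0213). The glucagon change was 0.14 ± 0.19 (adjusted p = 0.646). The T3 call was lost without control replicate 1 (adjusted p = 0.0915), T3 replicate 1 (0.0666) or T3 replicate 3 (0.06), and with only the 2 groups compared in the fit it and the combination call were lost (0.162 and 0.0854).

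Pygl codes for the liver glycogen phosphorylase, the enzyme that releases glucose 1-phosphate from glycogen and that glucagon activates by phosphorylation (chromosome 12, 70190811 to 70231488, - strand). Counts of Pygl corresponded to 754, 677, 639 and 672 CPM in glucagon, 316, 427, 259 and 323 CPM in T3, 374, 440.1, 410.4 and 347 CPM in combination, 369.6, 272, 369 and 213 CPM in hybrid and 619, 322, 462 and 623 CPM in control livers. Every glucagon liver was above every other liver, although the glucagon change against control was not called (0.44 ± 0.21, adjusted p = 0.147). T3, combination and hybrid livers all overlapped the controls. Pygl fell 1.66-fold with the hybrid (-0.73 ± 0.21, adjusted p = 0.0161) and 1.53-fold with T3 (-0.61 ± 0.21, adjusted p = 0.0493), and the combination change was -0.37 ± 0.21 (adjusted p = 0.231). The T3 call did not hold in the fit with a replicate block (adjusted p = 0.0716), with no filter on low counts (0.0529), with only the 2 groups in the fit (0.208), or without any one of control replicates 1 and 4 and T3 replicates 1, 3 and 4 (0.101 to 0.152). The hybrid call was lost without control replicate 4, hybrid replicate 2 or hybrid replicate 4 (0.0551 to 0.0732) and with only the 2 groups in the fit (0.132).

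Ppp1r3b codes for the main glycogen-targeting subunit of protein phosphatase 1 in liver, which brings the phosphatase to glycogen to activate the synthase (chromosome 8, 35375739 to 35388139, + strand). Ppp1r3b counts gave 391, 320.2, 277 and 258 CPM in glucagon, 107, 145, 174 and 156 CPM in T3, 278, 267, 312 and 157 CPM in combination, 223, 119.9, 234 and 101 CPM in hybrid and 245, 93.5, 232 and 239 CPM in control livers. Glucagon livers lay above all control, T3 and hybrid livers, and control replicate 2 was far below the other controls, which were close together. No change against control was called; with glucagon it was 0.62 ± 0.30 (adjusted p = 0.15) and with the hybrid -0.25 ± 0.30 (adjusted p = 0.586). Hybrid livers had 1.84-fold less Ppp1r3b than glucagon livers (-0.88 ± 0.30, adjusted p = 0.0393). That call was lost when any one of glucagon replicates 1, 2 and 3 or hybrid replicates 2 and 4 was left out (adjusted p = 0.0502 to 0.127).

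Ppp1r3c codes for PTG (protein targeting to glycogen), a second targeting subunit that also binds glycogen synthase and phosphorylase and is made in liver, muscle and fat (chromosome 19, 36731731 to 36736653, - strand). It showed the largest change of the 9 genes in each comparison with control livers. Its levels were 2.92, 1.94, 11.7 and 3.02 CPM in glucagon, 0.858, 1.7, 0.708 and 0.639 CPM in T3, 0.592, 0.638, 0.164 and 1.95 CPM in combination, 0.598, 0.438, 0.722 and 0.467 CPM in hybrid and 33.4, 7.97, 30.5 and 21.7 CPM in control livers. The raw counts behind them were 49, 30, 163 and 30 with glucagon, 7, 13, 6 and 4 with T3, 10, 8, 2 and 21 with the combination, 11, 8, 8 and 5 with the hybrid and 624, 165, 311 and 288 in the control libraries. All T3, combination and hybrid livers lay below all control livers, and glucagon replicate 3 was the only glucagon liver within the control range.

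Ppp1r3c fell 41.6-fold with the hybrid (-5.38 ± 0.65, adjusted p = 7.9e-06), 28.6-fold with the combination (-4.84 ± 0.63, adjusted p = 2.2e-05), 23.6-fold with T3 (-4.56 ± 0.64, adjusted p = 9.4e-05) and 4.76-fold with glucagon (-2.25 ± 0.53, adjusted p = 0.00465). At 2 to 21 counts a library, the levels in the 3 groups that received T3 rest on few reads, and the differences among those groups were not detectable at this depth. Against glucagon, Ppp1r3c was 8.76-fold lower with the hybrid (-3.13 ± 0.64, adjusted p = 0.00117) and 6.01-fold lower with the combination (-2.59 ± 0.61, adjusted p = 0.00431). The glucagon call was lost with only the 2 groups in the fit (adjusted p = 0.0506). Without combination replicate 4 the combination change was -5.58 against control and -3.35 against glucagon, both called.

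**Figure D2:**
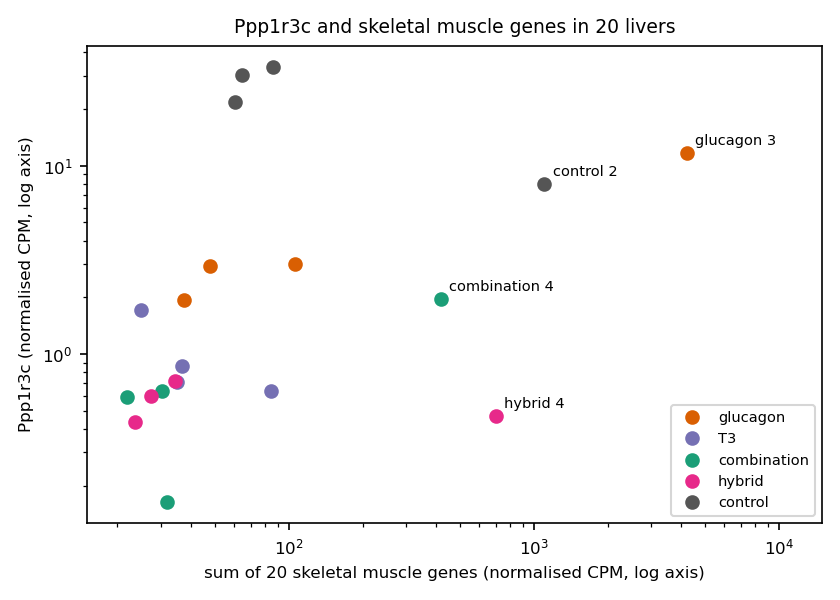
Ppp1r3c in each liver (CPM, log axis) against the summed level of 20 skeletal muscle genes (CPM, log axis); each point is 1 liver, coloured by group. Glucagon replicate 3, at 4209 CPM of muscle genes, holds 11.7 CPM of Ppp1r3c, and the 3 controls with 60.5 to 86.1 CPM of muscle genes hold 21.7 to 33.4 CPM.

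Skeletal muscle mRNA was present to different degrees in these livers, and the plot of Ppp1r3c against muscle genes sets it beside this gene. The 20 muscle genes, all listed and none at 0 in a whole group, summed to 37.4 to 4209 CPM in glucagon, 24.9 to 85 CPM in T3, 21.8 to 418 CPM in combination, 23.5 to 700.1 CPM in hybrid and 60.5 to 1105 CPM in control livers. The liver with the most muscle mRNA in the glucagon group had that group's highest Ppp1r3c, whereas the control liver with the most had the lowest control Ppp1r3c. Without glucagon replicate 3 the glucagon change was -3.15 (adjusted p = 0.000189), and without it and control replicate 2 it was -3.44 (adjusted p = 7.3e-06). Without glucagon replicate 3, Ppp1r3c differed from glucagon by -2.23 with the hybrid and by -1.70 with the combination, both called.

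**Figure D3:**
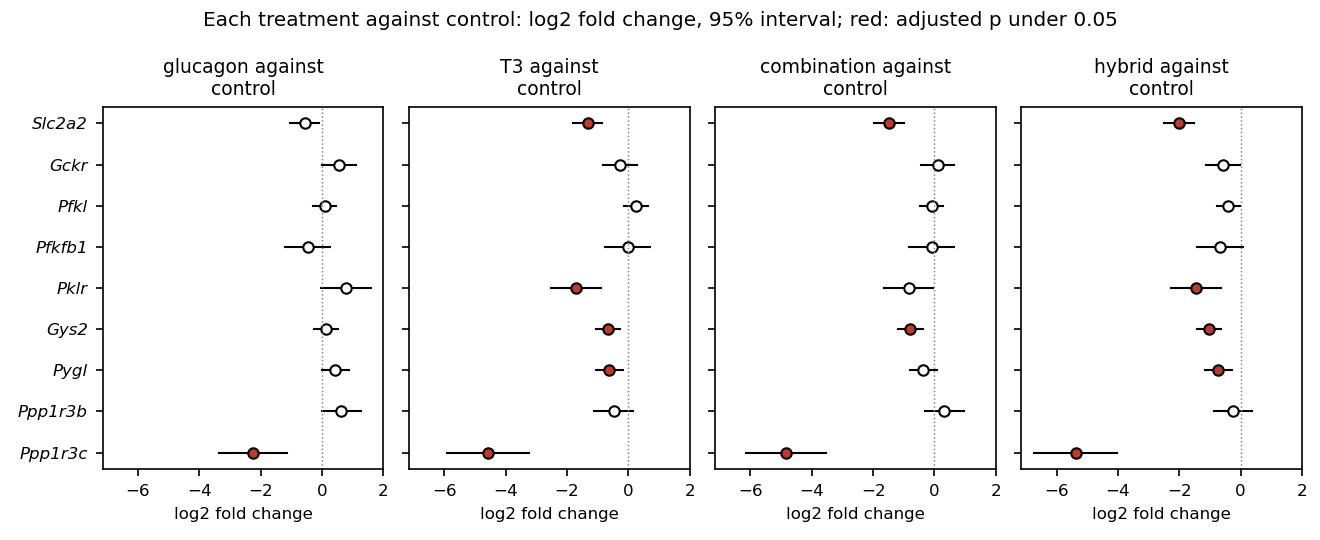
Log2 fold changes of the 9 genes with 95% intervals for glucagon, T3, the combination and the hybrid against the same 4 control livers; filled points are called at an adjusted p under 0.05. No called point lies above 0, and Ppp1r3c is called in all 4 panels.

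The 4 comparisons with control livers use the same 4 control mice, so their values are given side by side only. With glucagon, 0 of the 9 genes were called higher and 1 lower, beside 9.23% and 12.0% of all genes tested (21.2% in either direction). By edgeR at an unadjusted p under 0.05, 3 of the 9 passed with glucagon, 1 higher (Gckr) and 2 lower, and by DESeq2 1 was called, lower. With T3, 0 were called higher and 5 lower, beside 7.31% and 10.6% of all genes (18.0% in either direction); 5 passed unadjusted and 5 by DESeq2, none higher. With the combination, 0 were called higher and 3 lower, beside 9.23% and 10.9% (20.1%), with 4 unadjusted and 3 by DESeq2, none higher. With the hybrid, 0 were called higher and 5 lower, beside 11.2% and 13.2% (24.4%), with 7 unadjusted and 5 by DESeq2, none higher. These shares are of adjusted edgeR calls in all 20 livers. Here and below, no share of all genes is given beside the unadjusted and DESeq2 counts of members. The members' median log2 change was 0.14 with glucagon, -0.61 with T3, -0.37 with the combination and -0.73 with the hybrid, where the medians of all genes tested were -0.09, -0.05, -0.07 and -0.05 in the same order. Without control replicate 2 and glucagon replicate 3, 2 genes were called lower with glucagon, 5 with T3, 4 with the combination and 6 with the hybrid. Shares of all genes are not given for that fit. Leaving out control replicate 2 alone took the number of all genes called with the hybrid from 3143 to 3719.

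Tested for any difference among the 5 groups, 7 of the 9 genes were called, beside 42.4% of all genes tested. The adjusted p ran from 5.1e-06 for Slc2a2 and 5.0e-07 for Ppp1r3c to 0.0596 for Pfkl and 0.349 for Pfkfb1, and those last 2 genes were not called.

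The hybrid was compared with each of its parts given alone. Against glucagon, hybrid livers had less mRNA of 7 of the 9 genes, all but Pfkl and Pfkfb1, and none was called higher. Of all genes tested, 25.2% were called, 13.6% higher and 11.7% lower. The largest of these were in Ppp1r3c and Pklr, given above, then in Slc2a2 (-1.43 ± 0.23, adjusted p = 0.000136), Gys2 (-1.17 ± 0.19, adjusted p = 0.000162) and Pygl (-1.16 ± 0.21, adjusted p = 0.000456). The median of the 9 was -1.16, with a median of -0.00 over all genes tested. Against T3 it differed in 1 gene, Pfkl, which was lower. Of all genes, 6.36% were called, 3.69% higher and 2.67% lower. Slc2a2 was lower in all hybrid livers than in all T3 livers (-0.68 ± 0.23), with an adjusted p of 0.0795 in edgeR, 0.0365 in DESeq2 and 0.0205 with only the 2 groups in edgeR's fit.

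With T3 added to glucagon, 5 of the 9 genes fell: in combination livers against glucagon livers, Ppp1r3c, Pklr, Slc2a2, Gys2 and Pygl were called lower and none higher. Of all genes, 22.5% were called, 12.4% higher and 10.2% lower. Slc2a2 was 1.88-fold lower (-0.91 ± 0.23, adjusted p = 0.00636), Gys2 1.89-fold (-0.92 ± 0.19, adjusted p = 0.00144) and Pygl 1.74-fold (-0.80 ± 0.21, adjusted p = 0.00896). The groups did not overlap for these 3 or for Pklr. That is a description only, as no share of all genes without overlap is given. The median of the 9 was -0.80, beside -0.00 over all genes tested. Glucagon added to T3 gave no call: in combination livers against T3 livers 0 of the 9 were called by edgeR or DESeq2, where edgeR called 1.39% of all genes, 1.13% higher and 0.256% lower. At an unadjusted p under 0.05 in edgeR, 2 passed, both higher in combination livers: Ppp1r3b (0.80 ± 0.30) and Pklr (0.86 ± 0.39), with adjusted p of 0.25 and 0.362.

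**Figure D4:**
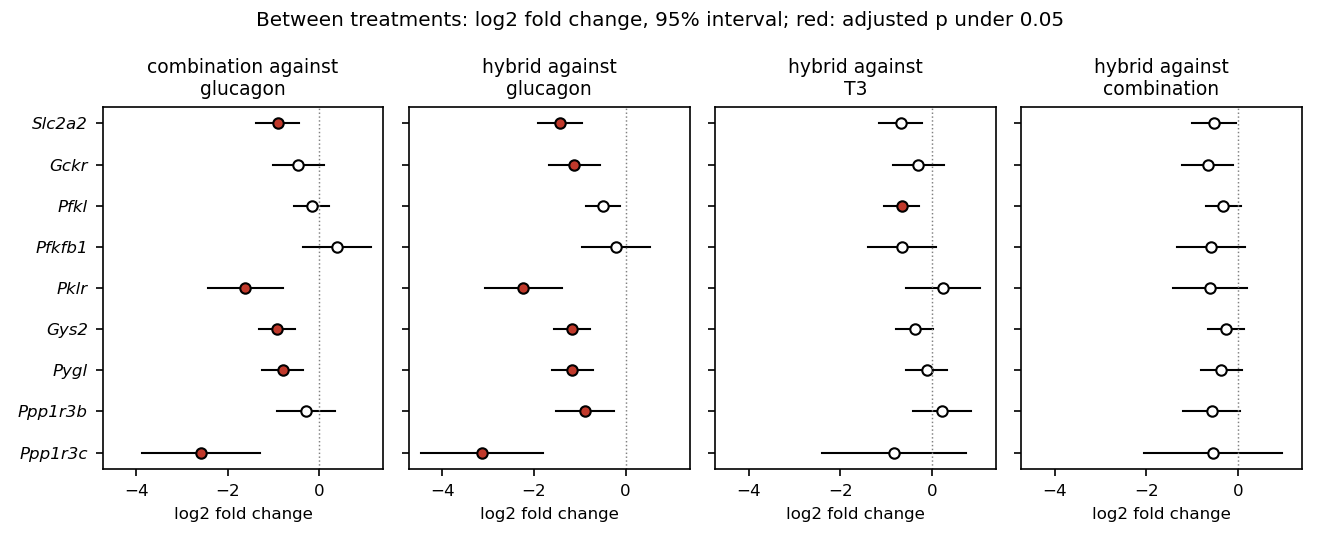
Log2 fold changes of the 9 genes with 95% intervals between treatments: combination against glucagon, hybrid against glucagon, hybrid against T3 and hybrid against combination. Filled points are called at an adjusted p under 0.05: 5, 7, 1 and 0 genes, from left to right.

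Between the hybrid and the combination, 0 of the 9 genes were called by edgeR or DESeq2, and 4 of all genes tested (0.0310%) were called by edgeR. At an unadjusted p under 0.05 in edgeR, 2 passed, both lower with the hybrid: Gckr (-0.66 ± 0.26, 95% interval -1.21 to -0.11, adjusted p = 0.667) and Slc2a2 (-0.52 ± 0.23, interval -1.00 to -0.05, adjusted p = 0.7). The other intervals ran -0.70 to 0.06 for Pfkl, -1.32 to 0.15 for Pfkfb1, -1.43 to 0.19 for Pklr, -0.65 to 0.14 for Gys2 and -0.80 to 0.08 for Pygl. For the phosphatase subunits they ran -1.21 to 0.05 for Ppp1r3b and -2.04 to 0.95 for Ppp1r3c, so that falls beyond 2-fold were inside the intervals of Pfkfb1, Pklr, Ppp1r3b and Ppp1r3c as well as Gckr. All 9 estimates were below 0, with a median of -0.54, beside 0.01 over all genes tested. The 9 genes share the same 8 livers, so this count is a description only.

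Whether glucagon changed a gene differently with T3 present was tested as the glucagon effect with T3 minus the glucagon effect without it. By this test 0 of the 9 genes were called by edgeR or DESeq2, where edgeR called 3.73% of all genes, 1.60% with a positive and 2.14% with a negative difference, and 1, Ppp1r3c, passed at an unadjusted p under 0.05. For Ppp1r3c the difference was 1.97 ± 0.89 (adjusted p = 0.264): glucagon against control gave -2.25 ± 0.53, and the combination against T3 gave -0.28 ± 0.73. It was called without glucagon replicate 3 (2.86, adjusted p = 0.0429) and without that liver and control replicate 2 (3.15, adjusted p = 0.00537). Ppp1r3c had only 4 to 13 counts a library with T3 and 2 to 21 with the combination, which leaves little room to see a further fall. The part of these low counts in the difference was not tested. All T3 libraries were in lane 5, so the lane and T3 alone cannot be told apart here either.

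The counts of the wider lists below stand beside the shares of all genes called higher and lower, which were 9.23% and 12.0% with glucagon, 7.31% and 10.6% with T3, 9.23% and 10.9% with the combination, and 11.2% and 13.2% with the hybrid. These shares are of adjusted edgeR calls in all 20 livers. None is given for the list counts at an unadjusted p, by DESeq2 or with livers left out. Other genes of glycolysis formed a list of 31 symbols, of which 26 were listed in the counts and 25 were tested. With glucagon 6 were called higher and 1 lower, with T3 4 and 1, with the combination 4 and 1, and with the hybrid 6 and 2. Leaving out control replicate 2 and glucagon replicate 3, 23 were tested and the counts were 3 and 1, 5 and 3, 6 and 2, and 6 and 3, in the same order. Slc2a1, which codes for the glucose transporter GLUT1, rose in all 4: 1.96 ± 0.14 with glucagon, 0.80 ± 0.14 with T3, 1.03 ± 0.14 with the combination and 1.16 ± 0.14 with the hybrid. Pfkfb2, another form of the bifunctional enzyme, rose with glucagon (1.64 ± 0.19), the combination (1.11 ± 0.18) and the hybrid (1.30 ± 0.19), and Pfkfb4, a further form, rose 15.1-fold with T3 (3.92 ± 0.61), 7.1-fold with the combination (2.83 ± 0.59) and 6.42-fold with the hybrid (2.68 ± 0.59). Without combination replicate 3 the combination change of Pfkfb4 was 2.03, still called. Gapdh was called higher with glucagon (1.40 ± 0.25), the combination (0.98 ± 0.25) and the hybrid (0.74 ± 0.25), the last a call lost without any one of control replicates 1 and 3 and hybrid replicates 3 and 4. Its values are uncertain because its reads can be shared with near-identical pseudogenes. The list's median was 0.26 with glucagon, 0.22 with T3, 0.16 with the combination and -0.03 with the hybrid.

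**Figure D5:**
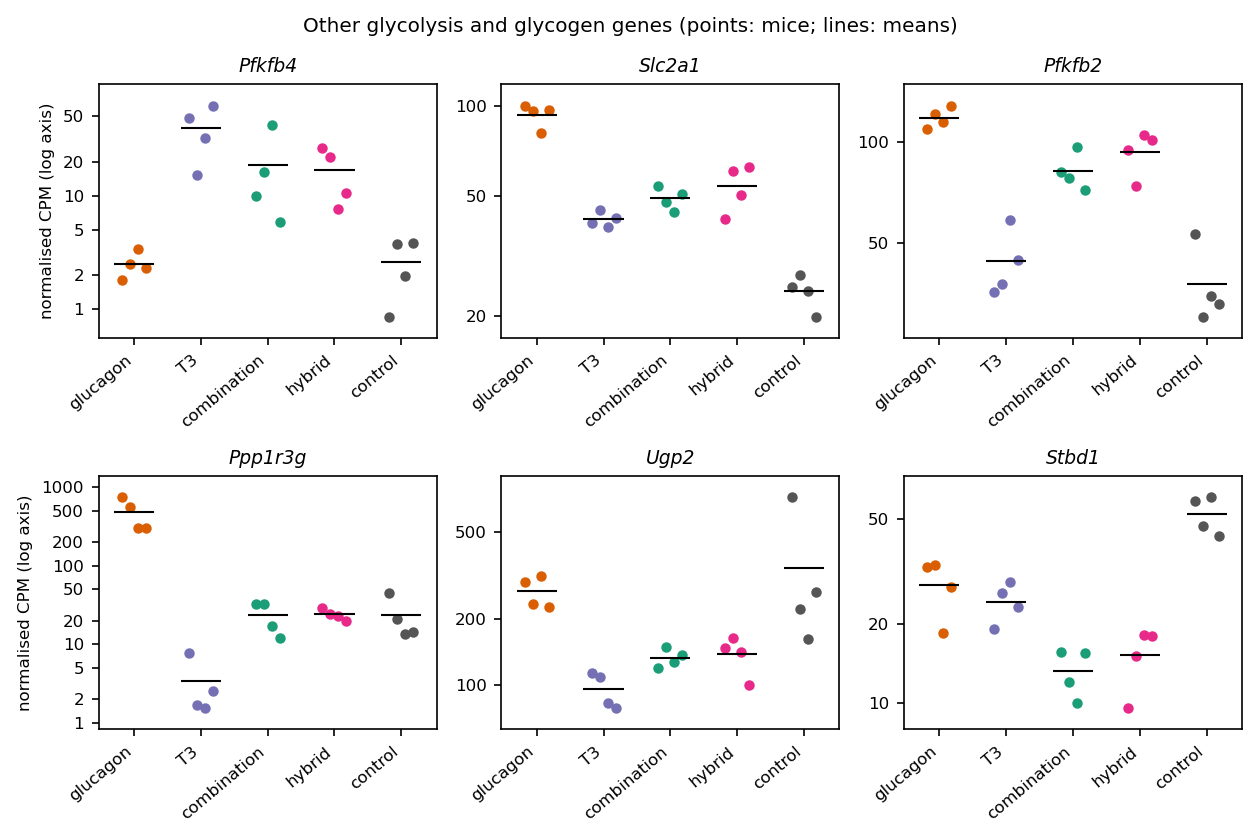
Levels of 6 other genes of glucose and glycogen metabolism in each liver, in CPM on a log axis, by group (4 livers each; short bars are group means). Ppp1r3g lies between 299 and 747 CPM in glucagon livers and at or below 44.4 CPM in every other liver.

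Other genes of glycogen metabolism formed a list of 28 symbols, of which 26 were listed and 24 tested. With glucagon 1 was called higher and 3 lower, with T3 0 and 8, with the combination 1 and 3, and with the hybrid 2 and 7; the T3 count of 0 higher was 1 at an unadjusted p under 0.05 in edgeR and 0 in DESeq2. Leaving out the same 2 livers, the counts were 1 and 5, 0 and 8, 1 and 6, and 2 and 7. Stbd1, which codes for a protein that binds glycogen, fell in all 4: -0.90 ± 0.22 with glucagon, -1.11 ± 0.22 with T3, -1.98 ± 0.23 with the combination and -1.79 ± 0.22 with the hybrid. Ugp2, whose enzyme makes the UDP-glucose that glycogen synthase uses, fell with T3 (-1.85 ± 0.33), the combination (-1.37 ± 0.32) and the hybrid (-1.32 ± 0.32). Control replicate 1 held 726 CPM of Ugp2 and the other controls 162 to 267 CPM, and without it these changes were -1.18, -0.71 and -0.65, all still called. Epm2a, which codes for the glycogen phosphatase laforin, fell 3.21-fold with the combination (-1.68 ± 0.47, adjusted p = 0.0147) and 3.31-fold with the hybrid (-1.72 ± 0.46, adjusted p = 0.00969). Its raw counts were 8, 8, 4 and 3 with the combination and 10, 11, 2 and 3 with the hybrid. In the control libraries they were 29, 25, 16 and 18, so the size of these falls rests on few reads. The list's median was -0.33 with glucagon, -0.30 with T3, -0.39 with the combination and -0.29 with the hybrid.

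Ppp1r3g, a further glycogen-targeting subunit, moved in the opposite direction to Ppp1r3c with glucagon. It was at 747, 566, 306 and 299 CPM in glucagon, 7.72, 1.7, 1.53 and 2.56 CPM in T3, 32.8, 32.9, 17.2 and 11.9 CPM in combination, 29.2, 24.6, 22.7 and 19.9 CPM in hybrid and 44.4, 20.9, 13.7 and 14.5 CPM in control livers. The glucagon livers were far above every other liver, and the T3 livers were below every other liver. Ppp1r3g rose 20.4-fold with glucagon (4.35 ± 0.49, adjusted p = 2.5e-06) and fell 6.87-fold with T3 (-2.78 ± 0.51, adjusted p = 0.00113), or -3.62 on the log2 scale without T3 replicate 1. It was 20.2-fold lower in combination than in glucagon livers (-4.33 ± 0.49, adjusted p = 2.9e-06).

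Of 10 regulators of carbohydrate genes, 2 were called higher and 1 lower with glucagon, 3 and 2 with T3, 3 and 1 with the combination, and 0 and 1 with the hybrid; the hybrid's 0 higher was 2 at an unadjusted p under 0.05 in edgeR and 0 in DESeq2. Leaving out those 2 livers, they were 2 and 2, 0 and 2, 2 and 2, and 0 and 2. Foxo1 and Klf15, transcription factors of the fasted liver, rose with glucagon (1.01 ± 0.19 and 0.83 ± 0.20). Klf15 fell with T3 (-0.64 ± 0.20), a call lost without any one of control replicates 3 and 4 and T3 replicates 1 and 3, and with a replicate block (adjusted p = 0.0534). It was also lower in combination and hybrid livers than in glucagon livers (-1.30 ± 0.20 and -1.31 ± 0.20). Srebf1, whose product drives lipogenic genes, fell with T3 (-1.33 ± 0.36; adjusted p = 0.0501 without T3 replicate 4), the combination (-1.32 ± 0.36) and the hybrid (-1.95 ± 0.36). Of 5 genes for the opposing steps of glucose release, 3 were called higher and 0 lower with glucagon, 0 and 0 with T3 and with the combination, and 1 and 1 with the hybrid. At an unadjusted p under 0.05 in edgeR, 0 of these 5 were lower with glucagon, 0 were higher and 2 lower with T3, and 0 passed with the combination; DESeq2 gave the same counts. Leaving them out, the edgeR counts were 2 and 0, 0 and 2, 0 and 1, and 1 and 2. G6pc, the catalytic subunit of glucose 6-phosphatase, rose with glucagon (1.82 ± 0.23) and the hybrid (1.12 ± 0.22), and Pck1, which codes for a phosphoenolpyruvate carboxykinase of gluconeogenesis, rose with glucagon (1.77 ± 0.28).

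Over the 20 livers, pairs of the 9 genes varied together to different degrees; all values share the same libraries and are given as descriptions. The highest Pearson correlations of log2 CPM were 0.905 for Slc2a2 and Gys2, 0.898 for Pklr and Pygl, 0.884 for Slc2a2 and Ppp1r3c, and 0.866 for Gckr and Pklr. These values include the differences between the groups. With the group means removed they were 0.786, 0.674, 0.511 and 0.915, in the same order. Of the tested genes whose mean reached 20 CPM, the 3 genes most like Slc2a2 were Galm (r = 0.970), Acsm5 (0.964) and Echs1 (0.956), and those most like Gckr were Khk (0.957), Haao (0.920) and Macrod1 (0.913). For Gys2 they were Inmt (0.961), Col27a1 (0.960) and Cyp4v3 (0.952), for Pygl Cmbl (0.912), Ugt3a2 (0.909) and Ces2a (0.908), and for Pklr Cyp2c29 (0.943), Adh1 (0.930) and Pdk1 (0.928). Ppp1r3c was most like Sucnr1 (0.908), Dsg2 (0.903) and Necab1 (0.899), and Ppp1r3b most like Il6ra (0.891), Aifm1 (0.849) and Nfs1 (0.839). Pfkl and Pfkfb1 had no gene above 0.852 and 0.770, the values of Jmjd8 and Ipo11. With the group means removed, r for Ppp1r3c was 0.437 with Sucnr1, 0.535 with Dsg2 and 0.315 with Necab1. For the other genes named as most like a member it ran from 0.703 (Pygl and Ces2a) to 0.949 (Gckr and Khk).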

How the data were processed

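Liver mRNA was sequenced from 20 mice, 1 library a mouse, after a Qiagen RNA extraction and a Lexogen library preparation, per the labels' protocols. The authors deposited raw counts of reads for each gene symbol; the submitters' processing notes name HTSeq and the build mm10. Aligner, annotation and strandedness: not given in the sources used here. Each library lists the same 13319 symbols, and every listed gene reaches at least 20 counts in some library.

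Counts were joined by symbol and grouped by the treatment label. Genes were filtered with filterByExpr (minimum count 10, minimum total 15), which dropped 412 and left 12907, and tested with edgeR 4.0.16 in R 4.3.3 (TMM, glmQLFit and glmQLFTest) in 1 fit over the 5 groups, with 15 residual degrees of freedom and Benjamini-Hochberg adjustment over the 12907 genes. Each SE was the size of the log2 fold change over the square root of the test's F. Intervals are 95% and are for the log2 fold change, not for the spread of single mice. They use the residual degrees of freedom plus about 5 prior ones. The script was tested on simulated data. Alternatives were DESeq2 1.42.0, RLE size factors, no filter, each pair of groups alone, replicate blocks, and leaving out libraries. The members and lists were chosen with earlier results of these data known. Named from the wider lists were at most 3 called genes of smallest p per list and comparison. The report kept those with a call that held on leaving out each library, and gives further values of the same genes, chosen after they were seen; some items are not reported here.

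The labels put replicates 1 to 4 of the glucagon, combination, hybrid and control groups in lanes 1 to 4 of the sequencer, so the number marks a shared lane in 16 libraries, while all T3 libraries were in lane 5. Over 24 pairs of libraries from the same lane, the correlation of deviations from the group means ran from -0.318 to 0.462, above 0.1 in 10. Positions are from GENCODE M21 on GRCm38, by symbol, and promoter windows from RefSeq.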

Additional observations from a re-analysis of the deposited data

Results flagged for a closer look

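In groups of 4 livers, a liver was marked where its gap to the nearest other liver, as a share of the group's range, exceeded Dixon's critical value at 95%. This was tested in 75 groups (the 9 genes and 6 others in 5 groups each) and marked 4, where chance marks about 1 group in 20. Pfkfb1 was 86.5 CPM in glucagon replicate 1, Ppp1r3c was 11.7 CPM in glucagon replicate 3 and Ppp1r3b was 93.5 CPM in control replicate 2. Ppp1r3g was 7.72 CPM in T3 replicate 1.

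The glucagon effect with T3 differed from the glucagon effect without T3, in edgeR's test of the difference, for 3 genes named here from the wider lists. The difference (log2) was -2.26 for Pck1 (adjusted p = 0.00153), -1.72 for Slc2a1 (2.2e-05) and 1.17 for Txnip (0.0241). The Txnip call was lost when any one of glucagon replicates 1, 2 and 4, T3 replicates 3 and 4 or combination replicates 1, 2 and 4 was left out.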

How the results depend on the processing

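No called change of the 9 genes or of the other named genes of glucose and glycogen metabolism reversed its direction under any alternative run. With only the 2 groups compared in the fit, the genes called were 976 for glucagon, 503 for T3, 918 for the combination and 1208 for the hybrid against control, 16 for hybrid against combination, 1560 for hybrid against T3 and 523 for combination against T3; members called were 0, 2 and 3 for glucagon, T3 and hybrid against control and 3 for hybrid against T3. Without control replicate 2 and glucagon replicate 3, 16 genes were called for hybrid against combination, and members called were 2 for glucagon against control, 2 for hybrid against T3 and 1 for the test of additivity. DESeq2 called 28 genes for hybrid against combination, 336 for combination against T3 and 2 members for hybrid against T3. With only the 2 groups compared in the fit, calls against control were also lost for Ugp2 and Gapdh with the combination and the hybrid, Srebf1 with T3 and the combination, and Klf15 with glucagon and T3. RLE size factors and no filter moved no count by over 1.5 times.

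With the replicate number as a block, members called were 4 for T3 against control and 8 for hybrid against glucagon. With lane as the block in 16 libraries they were 8 for hybrid against glucagon. Of the members' calls in pairwise comparisons, the blocks changed only the 2 given with Pygl and Pfkl; with lane as the block the Gapdh call with the hybrid was lost (adjusted p = 0.0563), and with the replicate block Pfkl was also called in the 5-group test (adjusted p = 0.0311).

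Leaving out each library in turn, genes called ran from 1988 to 3755, 1528 to 3178, 1854 to 3553 and 2333 to 3719 for glucagon, T3, combination and hybrid against control. They ran from 1 to 5 for hybrid against combination, 2624 to 2767 for hybrid against glucagon, 406 to 709 for hybrid against T3, 2264 to 2470 for combination against glucagon, 83 to 135 for combination against T3, 343 to 820 for additivity and 4711 to 6508 for the 5 groups. Members called ran from 1 to 2, 3 to 5, 3 to 4 and 4 to 6 against control in the same order, 0 to 1 for hybrid against T3, 6 to 7 for hybrid against glucagon, 0 to 1 for additivity and 6 to 8 for the 5 groups, and stayed at 5 for combination against glucagon and at 0 for hybrid against combination and combination against T3. The counts that moved by over 1.5 times were 1528 for T3 against control without T3 replicate 1, and 820 for additivity without control replicate 3. For hybrid against combination they were those without hybrid replicates 2, 3 or 4 (1 to 2), for hybrid against T3 those without T3 replicates 1, 2 or 4 or hybrid replicates 2 or 3 (406 to 539), and for combination against T3 those without any T3 replicate or combination replicates 1 or 2 (83 to 116). Members called were 2 for glucagon against control without control replicate 2 or glucagon replicate 1, 3 for T3 against control without control replicate 1, T3 replicate 1 or T3 replicate 3, and 1 for additivity without glucagon replicate 3. The low counts of Ppp1r3c in groups with T3 limit any comparison among them.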
